A study of Mus musculus with 4 samples.

Results

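Nuclear receptors other than the oestrogen, oestrogen-related and progesterone receptors, Pparg and Nr1d1 or Nr1d2, were examined with 4 of their coregulators, a set of 32 genes chosen by symbol. All 32 had a row in the count table of 55487 genes, and 29 had enough reads to be tested. The counts came from bulk RNA-seq of skeletal stem cells of wild-type mice, with 2 libraries from sham-operated and 2 from ovariectomized animals, all carrying the time 8 weeks. The labels do not say whether that time is an age or an interval after surgery, or whether the libraries of a group came from separate animals, so each p-value rests on how far these libraries scatter, and that scatter could be technical. The cells were freed from long bone metaphyses with collagenase and sorted after staining for CD45, Tie2, Ter119, 6C3, CD90, CD200, CD51 and CD105. The gate itself is not stated. Ovariectomy removes the ovaries and with them the main source of circulating oestrogen, and the series title sets the comparison in the progression of osteoporosis.

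Nuclear receptors are transcription factors whose ligand-binding domain takes up small lipophilic molecules such as steroids, thyroid hormone, retinoic acid, vitamin D, oxysterols or fatty acids. Many bind DNA as heterodimers with a retinoid X receptor (RXR), and some, the orphan receptors, have no settled ligand. Bound receptors recruit coactivators of the NCOA family or corepressors such as NCoR. In the skeleton, vitamin D, glucocorticoids, retinoic acid and thyroid hormone all act on growth plate and bone-forming cells through these receptors.

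The libraries held between 18291436 and 23721078 counts, and 1 count was worth between 0.0423 and 0.0519 CPM (counts scaled to a common library size, with TMM correcting for differences in composition). Skeletal markers were present in every library, at lower summed levels after ovariectomy. The 8 genes of that list summed to 84600 and 76580 CPM in the sham pair against 48980 and 44580 CPM in the ovariectomy pair. Of these 8, 4 were called lower and 2 higher after ovariectomy (75%, where 4.18% of all tested genes were called). Both ovariectomy libraries lay below both sham libraries for 6 of them and above for 2. Over all tested genes they lay below for 23.9% and above for 25.5%. Some markers of other cells moved with the groups. Of 6 fibroblast markers 3 were called higher (Dpt, Cd34 and Pi16). For 1 other, both ovariectomy libraries lay below both sham libraries, and the DESeq2 test called 1 of the 6 lower. The summed fibroblast level overlapped, at 5199 and 7631 CPM in the sham pair against 6723 and 7260 CPM in the ovariectomy pair. Of 6 pericyte and smooth muscle markers 3 were called higher (Des, Acta2 and Rgs5), with sums of 22.8 and 69.4 CPM in the sham pair against 355 and 402 CPM in the ovariectomy pair. Of 5 erythroid markers, 4 of them tested, 2 were called higher (Car1 and Klf1), with sums of 35.3 and 20.5 against 114 and 151 CPM. None of 7 leukocyte markers, 6 of them tested (52.2 to 66.6 against 78.9 to 126 CPM) and none of 6 endothelial markers (8.74 and 39.8 against 38.3 and 60.5 CPM) was called. Both ovariectomy libraries lay above both sham libraries for 4 of the 6 tested leukocyte markers (66.7%, against 25.5% of all tested genes) and below them for 0. For the endothelial markers they lay above for 3 of 6 (50%) and below for 0. All 6 endothelial log2 fold changes were positive, and edgeR with no filter called 2 of the 6 higher. Lyz2 was not called by the main edgeR fit (adjusted p = 0.0889) or limma-voom (adjusted p = 0.0761). It was called higher by DESeq2 (adjusted p = 0.00114) and by edgeR under other settings. These were no filter (adjusted p = 4.78e-08), a mean of 1 or 5 CPM (0.0459 and 0.0239) and a replicate block (0.0392). The T cell marker Cd3e had 0 counts in all but 1 library, and Klf1, Cdh5 and Emcn had 0 in at least 1 sham library. Of 7 genes for the sort antigens, 6 of them tested, Cd200 was called lower (1.65-fold, from 271 ± 48.1 to 164 ± 12.6 CPM, mean ± SD, n = 2, edgeR adjusted p = 0.0462). Eng, which encodes CD105, was at 21.6 and 52.1 CPM in the sham pair against 75.2 and 83.1 CPM in the ovariectomy pair (edgeR adjusted p = 0.15). Tek, which encodes Tie2, had 5 and 124 counts against 178 and 188 (edgeR adjusted p = 0.474). Neither Eng nor Tek was called, although their groups did not overlap, and both were lowest in sham 1 (these 2 were named after their values were seen). The part of these markers in the changes below was not tested.

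Of the 29 tested receptor and coregulator genes, 1 rose and 1 fell: Nr4a1 was higher and Vdr, the vitamin D receptor, lower after ovariectomy (edgeR adjusted p under 0.05 over all genes tested). That is 6.90% of the 29, where 4.18% of all 17120 tested genes were called, 2.98% higher and 1.20% lower. A count of 2 members is near that background. Both ovariectomy libraries lay above both sham libraries for 13 of the 29 (44.8%, against 25.5% of all tested genes) and below them for 6 (20.7%, against 23.9%). These shares were not tested against each other, and the filter keeps genes with reads in 1 group only, so low genes that passed through the ovariectomy group are among the 13. The median log2 fold change (ovariectomy over sham) was 0.16 over the 29 and -0.02 over all tested genes. At an unadjusted p under 0.05 there were 8 of the 29 (27.6%) and 3154 of all genes (18.4%). Leaving out an ovariectomy library leaves the spread to the sham pair alone, so such fits cannot show whether a call rests on 1 library. The log2 fold change of Nr4a1 was 0.60 without ovariectomy 1 and 0.49 without ovariectomy 2. That of Vdr was -0.57 and -0.60.

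**Figure D1:**
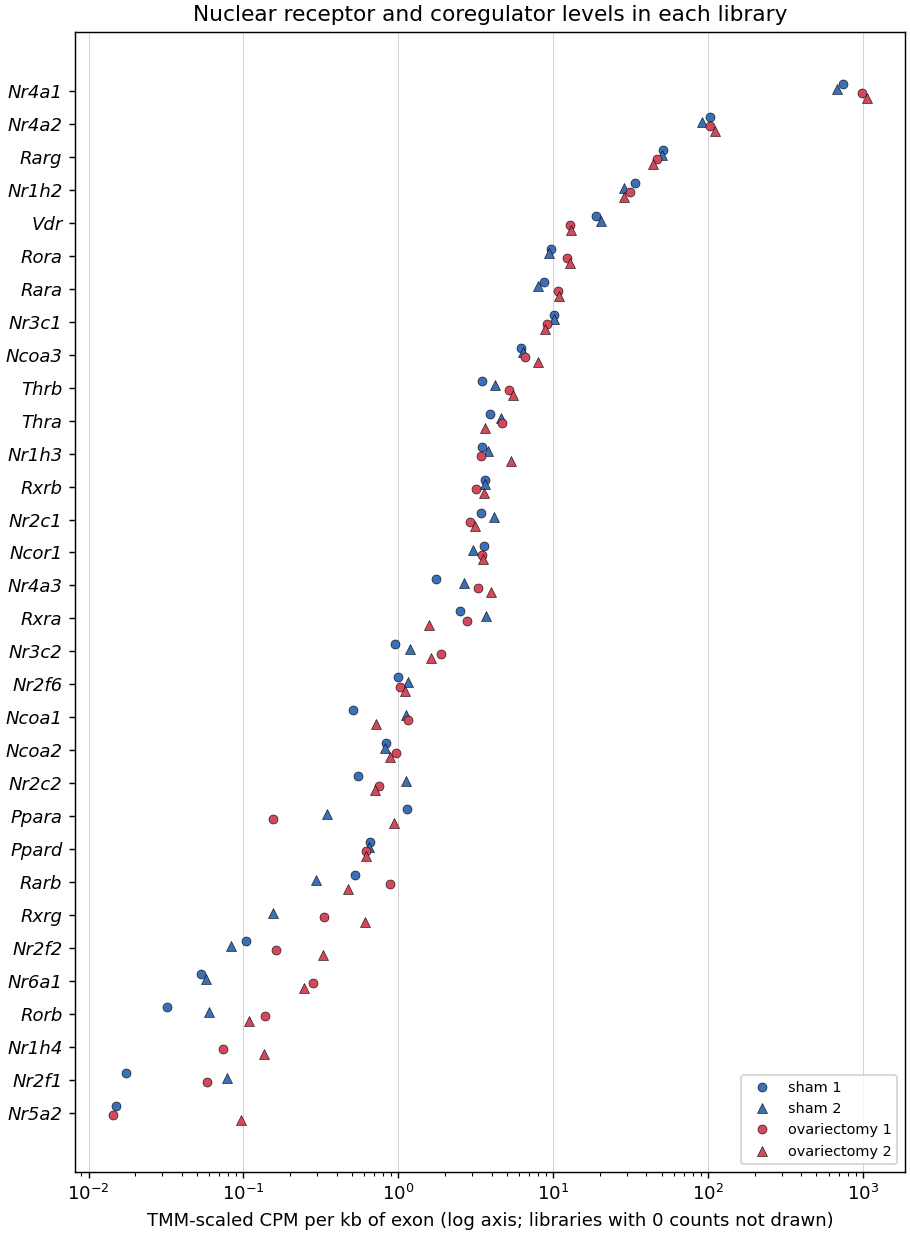
TMM-scaled CPM per kb of exon (log axis) of the 32 genes in each of the 4 libraries (blue: sham, red: ovariectomy; circle: library 1, triangle: library 2; libraries with 0 counts are not drawn). Nr4a1 stands at the top, at 984 and 1059 in the ovariectomy libraries, and the 2 groups overlap for many genes below it.

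Levels per length differed widely. Nr4a1 was the most abundant in both groups, at 707 ± 45.2 CPM per kb of exon in sham and 1022 ± 52.9 in ovariectomy cells (mean ± SD, n = 2 libraries here and below). Nr4a2 came next at 97.0 ± 7.37 and 107 ± 4.70, then Rarg at 50.6 ± 0.24 and 45.5 ± 1.63, Nr1h2 at 28.6 to 33.5 over the 4 libraries, and Vdr at 19.6 ± 0.97 and 13.0 ± 0.18 CPM per kb. These 5 kept their order in both groups, and their levels did not overlap with one another in any library. The next places, held by Rora, Nr3c1 and Rara, lay between 8.35 and 12.5 CPM per kb in group means, and Nr3c1 was the highest of these 3 in sham cells and the lowest in ovariectomy cells. Nr1h4, Nr2f1 and Nr5a2 had too few reads to test, with at most 11 counts in a library.

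The NR4A receptors are orphan receptors that act as immediate-early genes: they are induced within minutes by cyclic AMP, growth factors and mechanical stress. The part of collagenase treatment and sorting in their levels was not tested. Nr4a1 (Nur77, ENSMUSG00000023034, chromosome 15, 101254269 to 101274795, GRCm38) was at 2592 and 2368 CPM in sham 1 and 2, against 3454 and 3717 CPM after ovariectomy (libraries 1 and 2). Both ovariectomy libraries were higher than both sham libraries. The increase was 1.45-fold (log2 fold change 0.53 ± 0.10 SE, 95% interval 0.31 to 0.76, edgeR adjusted p = 0.0273). Nr4a2 (Nurr1) was at 415 and 373 CPM in the sham pair against 420 and 447 CPM in the ovariectomy pair. Its groups nearly touched, and it did not pass (log2 fold change 0.14, 95% interval -0.13 to 0.40, edgeR adjusted p = 0.610). Nr4a3 (Nor1), the least abundant of the family, was at 10.5 and 15.8 CPM in the sham pair against 19.5 and 23.8 CPM in the ovariectomy pair. Its groups did not overlap, but the log2 fold change of 0.71 ± 0.26 SE was not called (edgeR adjusted p = 0.201), except without sham 2 (log2 fold change 1.05, adjusted p = 0.0258). The 3 genes together took 76.7% and 74.9% of the counts of the whole set in the sham pair against 80.8% and 81.9% in the ovariectomy pair. Nr4a1 was 6.25 and 6.35 times Nr4a2 (CPM ratio) in the sham pair against 8.22 and 8.31 times in the ovariectomy pair. An exact two-sided permutation test of this ratio gave p = 0.333, the smallest that 2 against 2 libraries allow, and so did the other 5 ratios tested in the same way (all adjusted p = 0.333).

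The stretches upstream of the NR4A start sites are shown because the 3 family members share a feature there that the choice of genes did not use. They are from RefSeq (GRCm38.p6), 5′ to 3′ on the gene's strand, and capitals mark TGACG, the core of the cyclic AMP response element bound by CREB and ATF factors, on either strand (CGTCA on the other). The windows are chr15:101266596-101266845 (plus strand, within an intron of the longest annotated transcript) for Nr4a1, chr2:57124004-57124253 (minus strand) for Nr4a2 and chr4:48045055-48045152 (plus strand) for Nr4a3, where the run ends before the first annotated exon.
Nr4a1: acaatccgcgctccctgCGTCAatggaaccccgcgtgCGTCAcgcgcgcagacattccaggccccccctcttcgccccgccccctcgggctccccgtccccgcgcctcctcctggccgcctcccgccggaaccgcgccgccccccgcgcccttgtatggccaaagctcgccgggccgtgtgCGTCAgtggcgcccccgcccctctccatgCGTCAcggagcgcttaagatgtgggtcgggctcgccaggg
Nr4a2: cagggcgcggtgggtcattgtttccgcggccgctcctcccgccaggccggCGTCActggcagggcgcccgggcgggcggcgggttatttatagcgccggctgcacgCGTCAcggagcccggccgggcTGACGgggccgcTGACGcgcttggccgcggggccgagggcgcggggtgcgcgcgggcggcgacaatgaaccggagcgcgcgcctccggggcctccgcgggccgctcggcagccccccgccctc
Nr4a3: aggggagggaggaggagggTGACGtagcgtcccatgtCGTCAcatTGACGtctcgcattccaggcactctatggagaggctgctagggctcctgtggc
In the full window of 250 bases before the RefSeq start, each of the 3 genes held 4 such core elements, of which 3 lie in the shorter Nr4a3 run printed here. At least 4 were found in 45 of 32851 windows of that length (0.137%), and at least 1 in 5836 (17.8%). Promoters were given for 28 of the 32 genes, in 42 windows. Of these windows 10, from 10 different genes, held at least 1 such element, and no window outside the NR4A family held more than 1. The Vdr window held none. AGGTCA, the core element that most non-steroid nuclear receptors bind, and TGANTCA, the AP-1 element, were also searched on both strands: the NR4A windows held neither, while 14.0% and 6.75% of all windows held at least 1. A match describes these letters and is not a measured binding site.

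Other immediate-early genes were set beside the NR4A genes. Of 13 genes of the cyclic AMP and serum response, 4 were called higher and 0 lower, with a median log2 fold change of 0.41 (30.8%, against 4.18% of all genes). These genes were chosen with earlier results of these data known, so the share is a description and not a test. With genes filtered at a mean of 5 CPM, 5 of the 13 were higher, where 11% of all genes were called. Atf3, a stress-induced repressor, went from 914 ± 49.5 to 1711 ± 58.9 CPM (1.87-fold, edgeR adjusted p = 0.00501). Sik1, a kinase that dampens cyclic AMP signalling, went from 23.6 ± 3.97 to 52.1 ± 3.23 CPM (2.21-fold, edgeR adjusted p = 0.0155). The AP-1 subunits Fosb (1.49-fold) and Fos (1.33-fold, named after its values were seen) were the other two, and Fos was lost with upper-quartile scaling (edgeR adjusted p = 0.0678). The count of higher genes rose to 7 under DESeq2 or without a filter, and to 6 when either sham library was left out. Nr4a1 was 0.480 and 0.460 times Fos (CPM ratio) in the sham pair against 0.487 and 0.538 times in the ovariectomy pair, so the highest sham ratio and the lowest ovariectomy ratio nearly met.

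**Figure D2:**
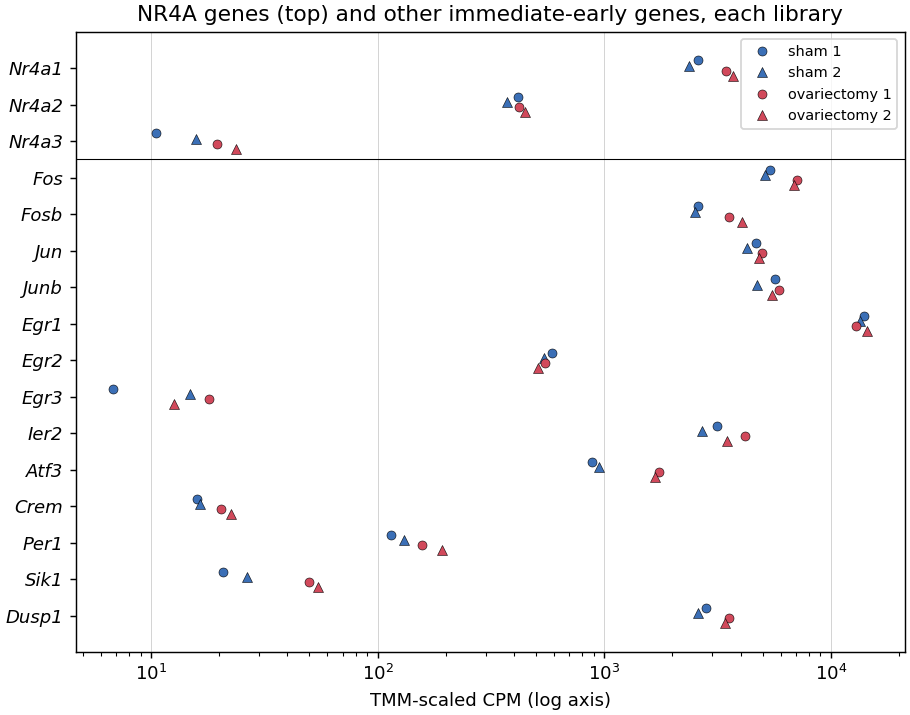
TMM-scaled CPM (log axis) of the 3 NR4A genes and 13 other immediate-early genes in each library (blue: sham, red: ovariectomy). The ovariectomy points of Nr4a1, Fosb, Fos, Atf3 and Sik1 lie right of their sham points, while those of Egr1 and Jun lie close to them.

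Vdr encodes the receptor of the active form of vitamin D. The gene (ENSMUSG00000022479, chromosome 15, 97854425 to 97910630, minus strand) was at 107 and 115 CPM in sham 1 and 2, against 72.6 and 74.0 CPM after ovariectomy (libraries 1 and 2). Both ovariectomy libraries were below both sham libraries, and the spread within each group was small beside the gap. Vdr fell 1.51-fold (log2 fold change -0.60 ± 0.12 SE, 95% interval -0.89 to -0.30, edgeR adjusted p = 0.0459). This call sat close to the threshold and was lost with library totals as the only scaling (log2 fold change -0.49, adjusted p = 0.0764) and without sham 2 (-0.53, adjusted p = 0.0573), with the direction kept under all 14 alternatives. In the same libraries the osteoblast factor Sp7 (named after its values were seen) fell 1.96-fold, from 237 ± 0.34 to 121 ± 13.9 CPM (edgeR adjusted p = 0.00893). The CPM ratio of Vdr to Sp7 was 0.451 and 0.484 in the sham pair against 0.554 and 0.665 in the ovariectomy pair, higher in both ovariectomy libraries (exact permutation p = 0.333). In bulk samples fewer cells of a type and less RNA per cell cannot be told apart. Of 7 vitamin D receptor target genes only 3 could be tested, and 1 of these was called (33.3%, against 4.18% of all tested genes). Spp1 (osteopontin), a matrix protein of bone, was called lower at 3185 ± 79.4 against 6057 ± 321 CPM (1.90-fold, edgeR adjusted p = 0.00426), and shares 18.8% of its exon length with another annotated gene. Cyp24a1, which breaks down vitamin D and is a direct target, was at 0.63 ± 0.65 CPM in ovariectomy and 1.67 ± 1.48 CPM in sham cells, a spread wider than the difference (named after its values were seen).

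The retinoic acid receptors were led by Rarg, the main form in cartilage, at 216 and 215 CPM in the sham pair against 199 and 189 CPM in the ovariectomy pair. The ovariectomy values were lower without overlap, by an amount that did not pass (log2 fold change -0.15, 95% interval -0.42 to 0.11, edgeR adjusted p = 0.556). Rara, the most broadly expressed form, was at 38.3 and 34.6 CPM in the sham pair against 46.8 and 47.8 CPM in the ovariectomy pair. Its groups were apart as well, in the other direction, and it did not pass (log2 fold change 0.38 ± 0.15 SE, edgeR adjusted p = 0.230). Rarg was 5.65 and 6.21 times Rara (CPM ratio) in the sham pair against 4.25 and 3.96 times in the ovariectomy pair. Rarb, itself a retinoic acid target, was low, at 1.56 to 4.65 CPM with overlapping groups, and shares 38.4% of its exon length with genes on the opposite strand, among them Top2b. Of 8 tested retinoic acid target genes none was called (edgeR, 2 at an unadjusted p under 0.05: Cyp26b1, which degrades retinoic acid, with a log2 fold change of -0.69 and adjusted p = 0.138, and Tgm2, a transglutaminase, with 0.28 and 0.245). With the DESeq2 test 0 were called, with no filter 1 was higher and 1 lower, without sham 1 there was 1 higher and without sham 2 there were 2 lower.

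The thyroid hormone receptors were about level per length in sham cells, at 4.25 ± 0.47 (Thra) and 3.84 ± 0.51 (Thrb) CPM per kb. Thrb was at 25.8 and 31.1 CPM in the sham pair against 38.5 and 40.9 CPM in the ovariectomy pair, without overlap (log2 fold change 0.48 ± 0.17 SE, 95% interval 0.08 to 0.88, edgeR adjusted p = 0.184). Thra, the form that predominates in bone, was at 18.1 and 21.2 CPM in the sham pair against 21.5 and 16.8 CPM in the ovariectomy pair, so its ovariectomy values lay on both sides of the sham values (95% interval -0.54 to 0.48). Thra shares 5.70% of its exon length with Nr1d1 on the opposite strand, and its sign turned under library totals. Of 5 tested thyroid hormone target genes none was called (edgeR, 3 at an unadjusted p under 0.05). Klf9, a Krüppel-like factor that thyroid hormone and glucocorticoids both induce, came nearest at 65.0 ± 2.47 and 107 ± 23.8 CPM (edgeR adjusted p = 0.0716), and was called under 9 of 14 alternatives, among them the DESeq2 test (adjusted p = 0.00223; 0.000261 to 0.504 over all 14). Me1, the malic enzyme, had a log2 fold change of -0.58 (edgeR adjusted p = 0.146).

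RXR proteins are the shared partners of the vitamin D, retinoic acid, thyroid hormone, PPAR and LXR receptors. Rxra was at 13.6 and 20.1 CPM in the sham pair against 15.1 and 8.57 CPM in the ovariectomy pair, with overlap, and Rxrb was at 14.4 in both sham libraries and at 12.7 and 14.3 CPM in the ovariectomy pair. Neither passed (edgeR adjusted p = 0.497 and 0.897), and the sign of Rxrb turned under library totals. Rxrg had 0 and 8 counts in the sham pair against 18 and 27 counts in the ovariectomy pair. Its ovariectomy counts were higher, but the 95% interval of its log2 fold change, -0.95 to 6.07, held 0.

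Among the receptors that sense lipids, Nr1h2 (LXR beta) was the main one, at 112 and 96.0 CPM in the sham pair against 105 and 95.9 CPM in the ovariectomy pair, with values that interleaved (log2 fold change -0.05, 95% interval -0.37 to 0.27, positive under library totals). Nr1h3 (LXR alpha) was at 8.70 and 9.48 CPM in the sham pair against 8.63 and 13.5 CPM in the ovariectomy pair, where ovariectomy 2 alone was high. Ppard was even across the 4 libraries, between 4.62 and 4.91 CPM, and its sign turned under library totals. Ppara, the fatty acid sensor of liver and heart, scattered within both groups, at 4.37 and 1.34 CPM in the sham pair against 0.59 and 3.58 CPM in the ovariectomy pair. Nr1h4, the bile acid receptor FXR, had 0 counts in both sham libraries, where 3 counts would be 0.134 CPM, and 4 and 6 counts in the ovariectomy pair. Of 9 tested LXR target genes, 1 was called higher and 1 lower (22.2%, against 4.18% of all tested genes). Pltp, a phospholipid transfer protein, went from 69.5 ± 10.5 to 140 ± 7.24 CPM (2.01-fold higher, edgeR adjusted p = 0.0128), and shares 19.3% of its exon length with Ctsa. Apoe, the lipid carrier, went the other way, from 569 ± 103 to 275 ± 14.7 CPM (2.07-fold lower, edgeR adjusted p = 0.0105). The count of higher LXR targets was 2 under 9 of 14 alternatives. Of 14 tested target genes of PPAR alpha and delta, 1 was called (7.14%, near the 4.18% of all tested genes). This gene, Vnn1, a pantetheinase, fell 2.11-fold from 67.8 ± 0.86 to 32.2 ± 3.84 CPM (edgeR adjusted p = 0.0108).

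Rora, an orphan receptor that drives the clock gene Arntl and is abundant in cartilage, was at 127 and 123 CPM in the sham pair against 159 and 168 CPM in the ovariectomy pair. The groups did not overlap and each was tight. The log2 fold change was 0.39 ± 0.12 SE (95% interval 0.12 to 0.66) and was not called (edgeR adjusted p = 0.125), except by the DESeq2 test (adjusted p = 0.0485). Rorb had 8 and 15 counts in the sham pair against 36 and 23 counts in the ovariectomy pair, too few to separate from 0 (95% interval of the log2 fold change -0.64 to 3.44). Of 5 clock genes under ROR control, Nfil3, a repressor, was called higher (1.90-fold, from 99.5 ± 11.6 to 189 ± 11.1 CPM, edgeR adjusted p = 0.0125) and no other was called in either direction. That is 20% of the 5, against 4.18% of all tested genes. Arntl itself (named after its values were seen) was at 67.0 and 46.8 CPM in the sham pair against 37.1 and 34.9 CPM in the ovariectomy pair. Both ovariectomy values were below both sham values, the opposite direction to Rora, and it was not called (log2 fold change -0.66 ± 0.19 SE, 95% interval -1.12 to -0.20, edgeR adjusted p = 0.122). DESeq2, no filter, a mean of 5 CPM and leaving out sham 2 each gave 1 of the 5 clock genes lower beside 1 higher.

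The glucocorticoid receptor Nr3c1 was at 77.7 CPM in both sham libraries and at 69.7 and 68.4 CPM in the ovariectomy pair. The ovariectomy values were lower by little (log2 fold change -0.17, 95% interval -0.46 to 0.12, edgeR adjusted p = 0.555). Nr3c2, the mineralocorticoid receptor, which also binds glucocorticoids, was at 6.16 and 7.66 CPM in the sham pair against 12.2 and 10.5 CPM in the ovariectomy pair, without overlap (log2 fold change 0.72 ± 0.27 SE, edgeR adjusted p = 0.220). The CPM ratio of Nr3c1 to Nr3c2 was 12.6 and 10.2 in the sham pair against 5.73 and 6.49 in the ovariectomy pair. Of 13 glucocorticoid target genes 4 were called higher and 0 lower (30.8%, against 4.18% of all genes), with a median log2 fold change of 0.72. The list was chosen with earlier results of these data known, so this share is a description and not a test. With genes filtered at a mean of 5 CPM, 6 of 11 tested genes of the list were higher, where 11% of all genes were called. Errfi1, an inhibitor of EGF receptor signalling, went from 1331 ± 119 to 2951 ± 152 CPM (2.22-fold, edgeR adjusted p = 0.00362). Nfkbia, the inhibitor of NF-kB, went from 426 ± 60.7 to 1045 ± 26.6 CPM (2.45-fold, edgeR adjusted p = 0.00434). Mt1, a metallothionein, went from 38.4 ± 3.67 to 126 ± 22.8 CPM (3.28-fold, edgeR adjusted p = 0.00439), and the fourth was Cebpd (1.80-fold, named after its values were seen). Both ovariectomy libraries lay above both sham libraries for 11 of the 13 (84.6%, against 25.5% of all tested genes) and below them for 1. Tsc22d3 (named after its values were seen) was the 1 gene of the list with overlap. It was at 577 and 503 CPM in the sham pair against 594 and 566 CPM in the ovariectomy pair. The list shares Per1 and Dusp1 with the immediate-early genes and Klf9 with the thyroid hormone targets, and stress and cytokines also induce several of its members. The count of higher genes rose to 8 under DESeq2, without a filter or when sham 1 was left out, and to 7 when sham 2 was left out or with library totals.

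**Figure D3:**
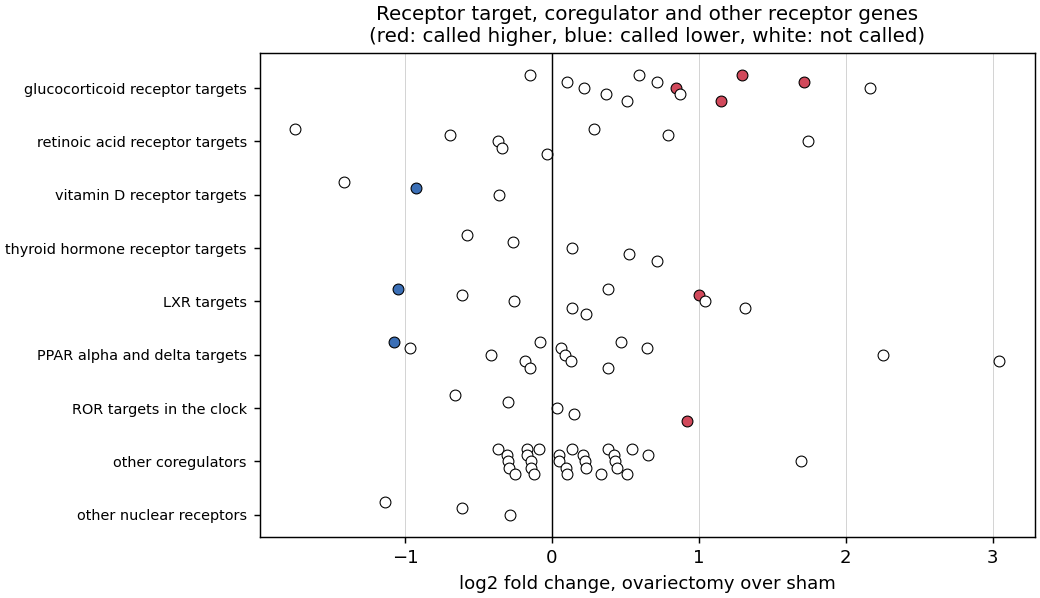
Log2 fold change (ovariectomy over sham) of each tested gene of the receptor target lists, the other coregulators and the other nuclear receptors (red: called higher, blue: called lower, white: not called; vertical offsets within a row only separate the points). The called genes are 4 glucocorticoid targets higher, 1 ROR target higher, 1 LXR target in each direction, and 1 vitamin D and 1 PPAR target lower.

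Of the orphan receptors of the COUP-TF and testicular receptor groups, which mostly repress transcription, none passed. Nr2c1 was at 15.7 and 19.1 CPM in the sham pair against 13.3 and 14.4 CPM in the ovariectomy pair (log2 fold change -0.33, edgeR adjusted p = 0.501). Nr2c2 was at 8.21 and 16.8 CPM in the sham pair against 11.2 and 10.5 CPM in the ovariectomy pair, so the sham pair enclosed the ovariectomy pair, and 31.2% of its exon length is shared with Mrps25 and another gene on the opposite strand. Nr2f2 (COUP-TFII), a factor of veins and stroma, had 20 and 16 counts in the sham pair against 33 and 54 counts in the ovariectomy pair (95% interval of the log2 fold change -0.30 to 3.06). Nr2f6 was at 2.99 to 3.43 CPM, with a sign that turned under library totals, and 54.4% of its exon length is shared with Ocel1 on the opposite strand. Nr2f1 had between 0 and 9 counts. Nr5a2, a regulator of liver and early embryo genes, had 2 and 0 counts in the sham pair against 2 and 11 counts in the ovariectomy pair.

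Nr6a1 (germ cell nuclear factor), which silences pluripotency genes in the embryo, had the smallest p of the members that were not called. It had 13 and 14 counts in the sham pair against 72 and 51 counts in the ovariectomy pair (0.58 and 0.62 against 3.04 and 2.65 CPM). Both ovariectomy libraries were above both sham libraries. The log2 fold change was 2.23 ± 0.62 SE (95% interval 0.77 to 3.69) and was not called (edgeR adjusted p = 0.106, between 0.0600 and 0.593 over its 13 alternatives).

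The coregulators of the set differed little between the groups. Ncoa3 (SRC-3), the most abundant of the 4, was at 49.4 ± 0.82 CPM in the sham pair against 52.1 and 62.6 CPM in the ovariectomy pair (log2 fold change 0.21, edgeR adjusted p = 0.533). Ncoa2 (SRC-2) was at 13.0 and 12.7 CPM in the sham pair against 15.0 and 13.8 CPM in the ovariectomy pair, without overlap and with a 95% interval of -0.35 to 0.67. Ncoa1 (SRC-1) was at 4.37 and 9.57 CPM in the sham pair against 9.85 and 6.18 CPM in the ovariectomy pair, and the pairs crossed. The corepressor Ncor1 was at 45.8 and 38.9 CPM in the sham pair against 44.2 and 44.9 CPM in the ovariectomy pair (95% interval -0.28 to 0.43). Of 28 further coregulators, all of them tested, edgeR called 0 (3 at an unadjusted p under 0.05). The DESeq2 test called 0, and no filter or leaving out sham 2 gave 1 higher. The coactivator Pprc1, one of these 3, went from 72.0 ± 1.99 to 90.6 ± 5.92 CPM without passing (edgeR adjusted p = 0.228).

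Of 11 nuclear receptors outside the set, 3 had enough reads to test, 0 were called by edgeR (2 at an unadjusted p under 0.05) and 3 had no count in any library. DESeq2 called 1 lower.

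**Figure D4:**
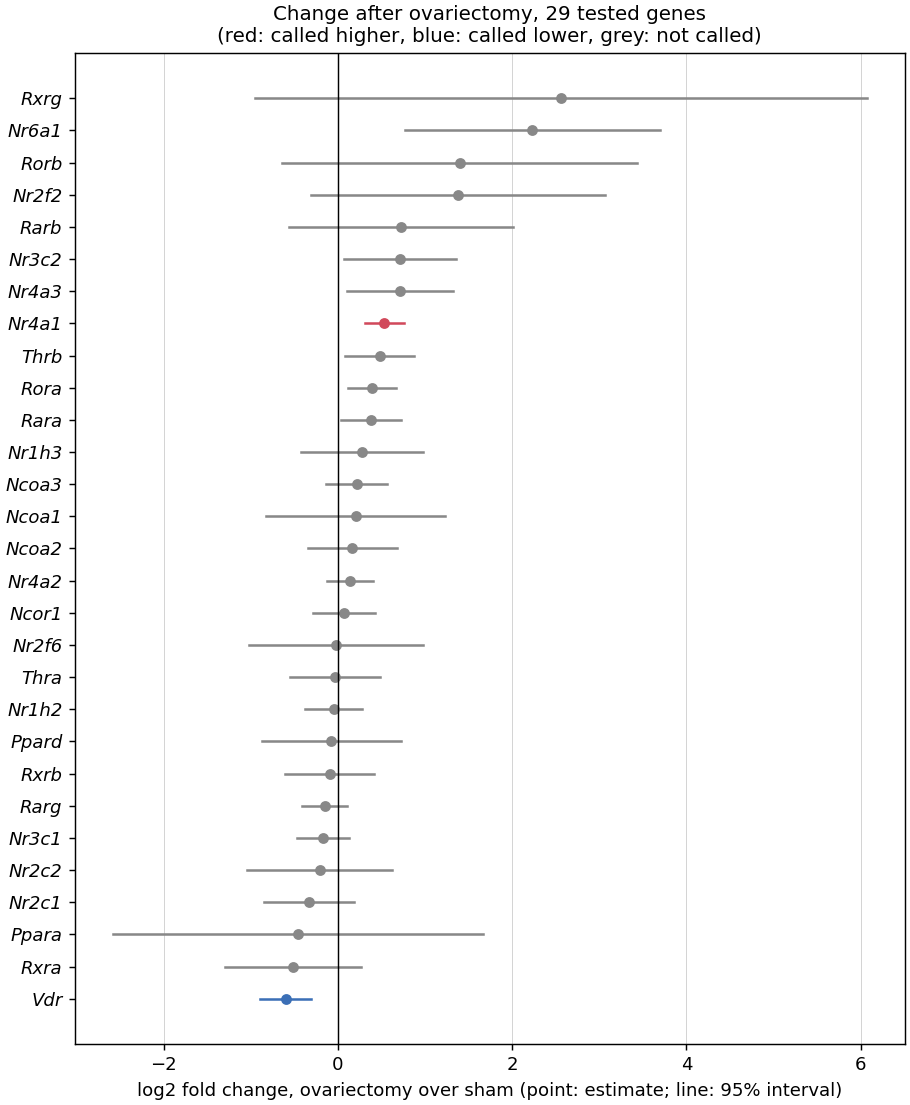
Log2 fold change (ovariectomy over sham) of the 29 tested genes, ordered by size, with the 95% interval of each gene taken alone, not adjusted for the number of genes (red: called higher, blue: called lower, grey: not called). Vdr and Nr4a1 are the coloured genes. The intervals of 6 grey genes (Nr6a1, Nr3c2, Nr4a3, Thrb, Rora and Rara) also leave out 0, and the widest interval belongs to Rxrg.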

How the data were processed

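The values are whole-number counts per Ensembl gene, deposited by the authors as 1 table of 4 libraries and made with Trim Galore 0.6.6 and featureCounts 2.0.1 on GRCm38 (mm10), per the submitters' processing notes. No aligner, annotation release or strand setting is stated in the sources used, so reads of genes that overlap on opposite strands cannot be told apart. GENCODE M21 gave symbols and exon lengths for 55227 of the 55487 IDs, and the rest held at most 0.0046% of a library's counts.

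Genes were filtered with filterByExpr, which left 17120, scaled by TMM and tested in edgeR 4.0.16 by quasi-likelihood F (R 4.3.3, two-sided, group alone, common biological coefficient of variation 0.317, Benjamini-Hochberg over all genes tested, called under 0.05). SE is the log2 fold change divided by the square root of F. Intervals are per gene. Libraries of a group differed by more than sampling noise (chi-square per degree of freedom 28.6 for sham, 13.9 for ovariectomy). Alternatives used other scalings, filters, DESeq2 1.42.0, limma-voom (limma 3.58.1), a GC and length offset, a replicate block, and each library left out.

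The 32 genes and the comparison lists were chosen with earlier results of these data known, and target lists rest on general knowledge. All 32 genes are described, and from each other list up to 3 called genes with the smallest p, or 2 genes where none was called. Some genes that this rule picks are not reported here.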

Additional observations from a re-analysis of the deposited data

How the results depend on the processing

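Over 14 alternatives, 19 log2 fold changes of the 29 tested receptor and coregulator genes turned sign, all in genes that were not called, and none of the 38 other genes named from the lists did. With library totals as the only scaling, which shifted the median of all genes from -0.02 to 0.09, Thra was at 0.072, Rxrb at 0.012, Ppard at 0.032, Nr1h2 at 0.053 and Nr2f6 at 0.085, 0 receptor or coregulator genes were called lower, and higher genes made up 82.2% of all calls (718 higher, 156 lower) against 71.2% (510 and 206). With 1 library left out, the log2 fold change ran from -0.21 to 0.15 for Thra, -0.17 to 0.0063 for Rxrb, -2.25 to 0.63 for Ppara, -0.15 to 0.070 for Nr1h2, -0.061 to 0.58 for Nr1h3, -0.63 to 0.41 for Nr2c2, -0.12 to 0.091 for Nr2f6, -0.25 to 0.89 for Ncoa1 and -0.028 to 0.20 for Ncor1. The number of these genes called higher was 2 with the DESeq2 test (Rora and Nr4a1) and 0 to 2 with 1 library left out, and the number called lower was 0 to 1. Over all genes 716 were called, against 1416 with DESeq2, 1656 with no filter, 1105 at a mean of 5 CPM and 0 to 1835 with 1 library left out, where leaving out an ovariectomy library leaves the spread to the sham pair alone and assumes that the lone library varies like it. The cause of the other shifts was not tested. The replicate numbers are not stated to pair the libraries (correlation of the within-pair differences 0.00431 across genes). With a replicate block 1074 genes were called, Nr4a1 and Vdr among them, and 7 genes each of the glucocorticoid target and immediate-early lists were higher. Depth limits Rxrg, Rorb, Nr2f2 and the untested Nr1h4, Nr2f1 and Nr5a2, which had low counts.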
